A study of Canis lupus familiaris with 8 samples.

Results

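MAL, STOM, CAV1 and CAV2 encode proteins of membrane rafts and caveolae, and they were followed over 8 one-colour arrays of a canine mammary carcinoma line. The members were every gene probe whose transcript accession is listed for 1 of these genes by RefSeq, which gave 8 of 43603 probes and 4 of the 1458 genes that could be named by accession. MAL had 2 probes, STOM 2, CAV1 1 and CAV2 3, and all 8 passed the filter on dim probes. MAL and STOM were selected on their measured signals in the difference between the unsorted lines, and CAV1 and CAV2 were grouped with them with results of these arrays known. Every comparison that uses the unsorted arrays is therefore given for all 4 genes as a description, with no test.

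The starting line was CMT-Stylo, an established canine mammary tumour cell line. CMT-Star is its subline, kept in stepwise higher doxorubicin, an anthracycline that damages DNA, until it withstood 100 nM. Each line was studied unsorted, as Stylo parent and Star parent, and as cells sorted for CD44+, CD24-/low and ALDH+, which the submitters call cancer stem cells (CSC): Stylo CSC and Star CSC. Each of the 4 groups had 2 arrays. All cells were grown in the same serum-containing medium. The comparison of lines is between 1 line and 1 subline, and the labels do not say whether the arrays of a group came from separate cultures, so p-values reflect no more than array-to-array spread, and that spread can be purely technical.

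Membrane rafts are small, mobile patches of membrane rich in cholesterol and sphingolipids. Caveolae are flask-shaped pits of the plasma membrane whose coat is built from caveolins together with cavins, and they serve in mechanical buffering, lipid traffic and signalling. MAL is a small, membrane-spanning proteolipid of rafts that takes part in sorting to the apical membrane of epithelia and in myelin, and STOM, stomatin, is a cholesterol-binding scaffold that sits on the inner face of the membrane and regulates ion channels and the glucose transporter GLUT1. CAV1 is the main structural caveolin outside muscle, and CAV2 is its partner, which needs CAV1 to leave the Golgi and reach caveolae.

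Levels are given as log2 of the processed signal relative to the array's own 75th percentile, so 0 is the signal at that percentile. Levels of different probes are not comparable with each other, and only changes are. A probe was called when limma's Benjamini-Hochberg adjusted p over all tested probes was under 0.05 and the change was at least 2-fold. Errors after ± are standard errors of the fit, and intervals are 95% intervals. The 75th percentile signal was 88.6 and 69.5 on the Stylo parent arrays and between 297 and 538 on the other arrays. On the Stylo parent arrays 46.7 to 47.4% of spots were well above background, against 55.5 to 60.7% on the other arrays. No spot was saturated. The 4 Stylo arrays lay on 1 slide and the 4 Star arrays on another, so slide and line cannot be told apart, while each comparison of sorted with unsorted cells lies within a slide. Of 14 epithelial markers listed, 6 had a matched probe: KRT14 and PGR were well above background on all 8 arrays, CDH1 and CLDN3 on 6, KRT19 on 3 and ESR1 on none.

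**Figure D1:**
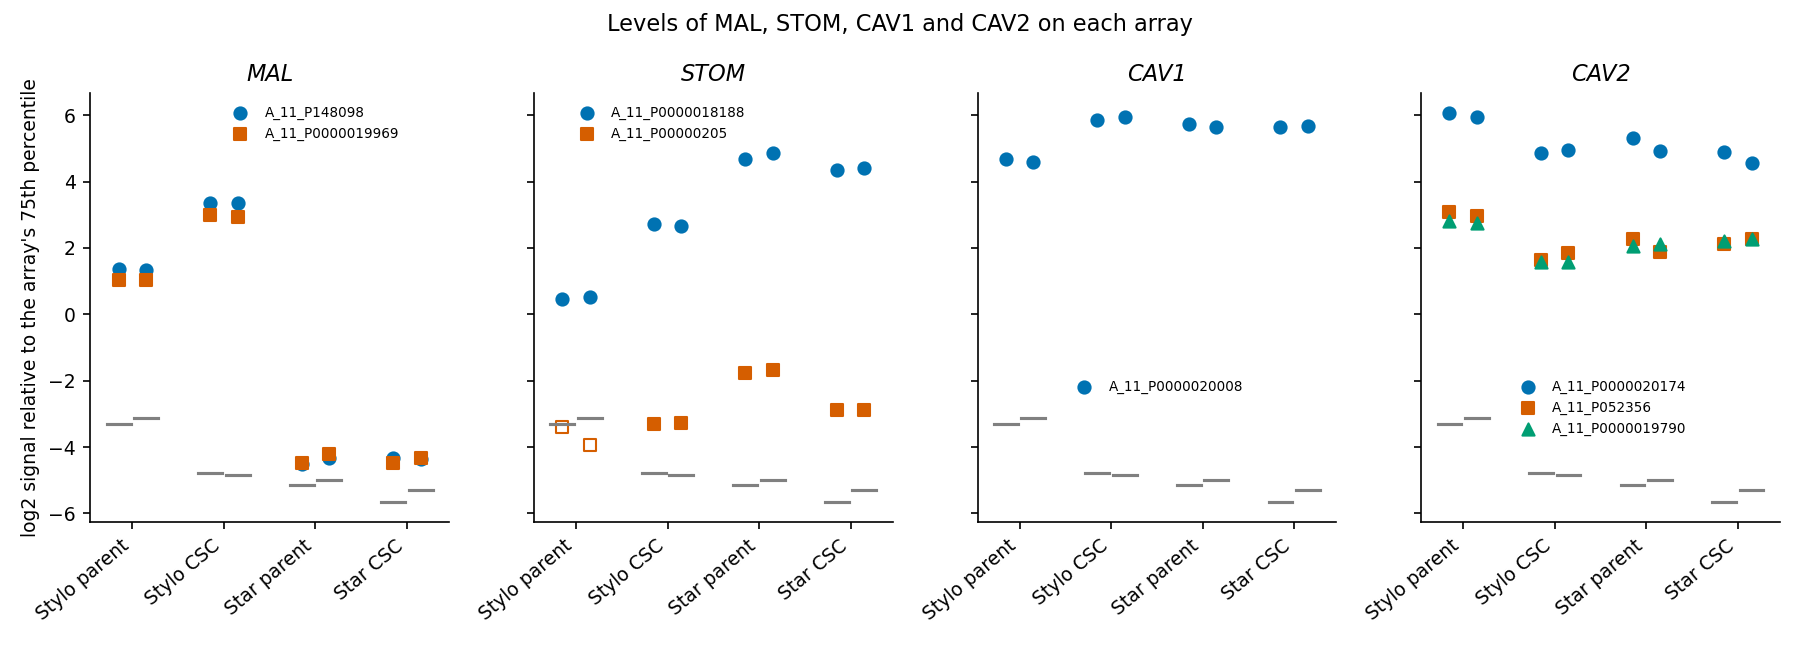
Level of each probe of MAL, STOM, CAV1 and CAV2 on each of the 8 arrays (vertical axis, log2 signal relative to the array's 75th percentile; horizontal axis, the 4 groups with 2 arrays each). Symbols are probes, open symbols are values not well above background, and grey ticks mark the lowest signal well above background on that array; MAL lies just above the ticks on the 4 Star arrays and far above them on the 4 Stylo arrays.

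MAL was high in both Stylo groups and close to the lowest detected signal in both Star groups. On probe A_11_P148098 its level was 1.38 and 1.35 in Stylo parent, 3.37 and 3.35 in Stylo CSC, -4.51 and -4.32 in Star parent, and -4.33 and -4.36 in Star CSC. As processed signal the same probe read 3210 and 3020 in Stylo CSC and 26.8 and 22.6 in Star CSC. All 4 Star arrays therefore lay below all 4 Stylo arrays, with no overlap, and the 2 Stylo groups did not overlap each other. The signals on the Star arrays were 1.53 to 2.53 times the lowest well-above-background signal of the same array, so the level there is low but was still flagged as measured.

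The second MAL probe, A_11_P0000019969, gave the same order of the lines. Its level was 1.05 and 1.03 in Stylo parent, 3.0 and 2.94 in Stylo CSC, -4.47 and -4.22 in Star parent, and -4.47 and -4.32 in Star CSC. On both probes the ranges of Star parent and Star CSC overlapped, and the difference between their means was smaller than the gap between the 2 Star parent arrays. Whether fewer cells carried the transcript or each cell carried less of it cannot be told apart in these bulk samples.

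The line difference was tested in the sorted cells, whose 4 arrays do not enter the unsorted difference in which MAL and STOM were named. The genes were still chosen with earlier results of these data known, and the sorted cells came from the same lines. The p-values are therefore no independent test of that choice. In that comparison 29.4% of 26819 tested probes were called, 12.6% higher and 16.9% lower in Star CSC, with a median change of -0.10. Of the 4 genes, 2 were called on their representative probe, the one with the highest mean level: MAL fell and STOM rose. Of the 8 probes, 1 was called higher and 2 lower. With so large a background, the count of called members is not by itself a result about these genes, and the sizes below carry the description.

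In Star CSC against Stylo CSC, MAL changed by -7.70 ± 0.10 on A_11_P148098, which is 208-fold lower (interval -7.95 to -7.45, limma adjusted p = 6.02e-06, n = 2 arrays a group). A_11_P0000019969 changed by -7.37 ± 0.12, or 165-fold lower (limma adjusted p = 6.94e-06). Ordered by the size of the change, these probes stood in places 4 and 12 of 26819. The difference kept its direction and call under all 23 alternative settings for the first probe, from -7.72 to -5.86, and the smallest fall came with normexp background correction. Not all of these settings could have changed it. Leaving out an unsorted array does not move this estimate, and looser call rules cannot remove a call.

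The unsorted lines also differed in MAL, by -5.78 and -5.38 on the 2 probes, which is the difference that led to its choice. Over the alternatives this difference ran from -5.87 to -2.7 and from -5.51 to -2.59. Sorting went with a higher MAL level in Stylo, by 1.99 and 1.93, and with differences of 0.07 and -0.05 in Star. These comparisons share parent arrays with the difference that chose MAL, so they are given side by side with no test. In Stylo the 2 sorted arrays lay above the 2 unsorted ones on both probes, by far more than the gap within either pair.

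Several fibroblast markers moved with MAL. Of 10 listed, 6 had a matched probe, and all 6 were well above background on every array. Between the sorted populations, 5 of the 6 were called lower and none higher, against 37.9% of the 976 tested named genes called in either direction: the collagen-binding proteoglycan DCN changed by -7.00, the collagen chains COL1A1 and COL1A2 by -6.27 and -2.33, the surface glycoprotein THY1 by -2.82 and the intermediate filament VIM by -1.95. PDGFRB, a growth factor receptor, was at -0.94 and was not called. COL1A2 had 6 tested probes, which ran from -2.33 to -0.34, and 3 of them were called lower. All tested probes of DCN, COL1A1, THY1 and VIM were called lower. The median of the 6 was -2.58, and 3 were called lower with quantile normalization and 4 with cyclic loess. Their summed level on the linear scale, in multiples of the 75th percentile signal, was 662 to 736 in Stylo parent, 1280 to 1390 in Stylo CSC, 374 to 439 in Star parent and 291 to 317 in Star CSC. That sum is mostly VIM and COL1A2, so it says little about DCN and COL1A1. In Stylo parent the log2 levels averaged 9.27 for VIM and 6.15 for COL1A2, against 1.07 for DCN and 1.42 for COL1A1. In Star parent against Stylo parent, 4 of the 6 were called lower and 1 higher, where 59.7% of named genes were called. COL1A2 was the one called higher, at 1.09, and THY1 was at 0.29, while MAL was at -5.78, so these 2 markers did not move with MAL there. In Stylo CSC against Stylo parent, 4 of the 6 were called higher and 1 lower, where 57.3% of named genes were called. In Star CSC against Star parent none was called, where 12.9% of named genes were. With spike-in scaling 5 were called higher there, with a median of 1.27. That scaling called 21860 of all 26819 tested probes higher, with a median of 1.56, so this count is not a result about the markers. The part of the fibroblast markers in the MAL result was not tested.

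STOM ran the other way between the lines. On its brighter probe, A_11_P0000018188, the level was 0.47 and 0.51 in Stylo parent, 2.71 and 2.65 in Stylo CSC, 4.69 and 4.86 in Star parent, and 4.34 and 4.41 in Star CSC. Both Star groups lay above both Stylo groups, Stylo CSC lay above Stylo parent, and no group overlapped another. Between the sorted populations, Star CSC over Stylo CSC, it rose by 1.69 ± 0.10, or 3.23-fold (interval 1.44 to 1.94, limma adjusted p = 0.000106). It kept that call under all 23 alternatives, from 1.05 with the mean of its probes to 2.24 with spike-in scaling. As for MAL, some of these settings could not have changed the result.

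The second STOM probe, A_11_P00000205, was dim and gave smaller differences. Its level was -3.40 and -3.95 in Stylo parent, with neither array flagged as well above background, -3.30 and -3.26 in Stylo CSC, -1.77 and -1.69 in Star parent, and -2.87 and -2.87 in Star CSC. Star parent was at least 2.81-fold over Stylo parent on this probe, a bound that sets the dim arrays at their lowest well-above-background signal and holds at the main background treatment only, since with normexp the difference turned to -0.61. Between the sorted populations it differed by 0.42 ± 0.18 (limma adjusted p = 0.0967), so 1 STOM probe met the call rule there and the other did not. Both estimates were above 0 there.

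Between the unsorted lines STOM differed by 4.28 and 1.95 on its probes, again the difference that led to its choice. Sorting went with a difference of 2.19 in Stylo on the brighter probe and of -0.40 and -1.14 in Star on the 2 probes. These are given without a test for the same reason as for MAL. On the dim probe Stylo CSC, at -3.28, lay below the lowest detected level of Stylo parent, -3.22, so no difference is given there. The line difference on the brighter probe was thus 4.28 unsorted and 1.69 sorted. Within each array, where the scaling constant cancels, STOM less MAL stood 10.07 and 10.05 above the Stylo parent mean in Star parent and 9.54 and 9.65 above it in Star CSC. In Stylo CSC the same quantity was only 0.22 and 0.18 above it: both genes were higher there by similar amounts. The background treatment does not cancel in this way, and MAL was close to the lowest detected signal on the Star arrays. Over the alternatives the unsorted line difference ran from -5.87 to -2.7 for MAL and from 3.11 to 5.24 for STOM on their representative probes.

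**Figure D2:**
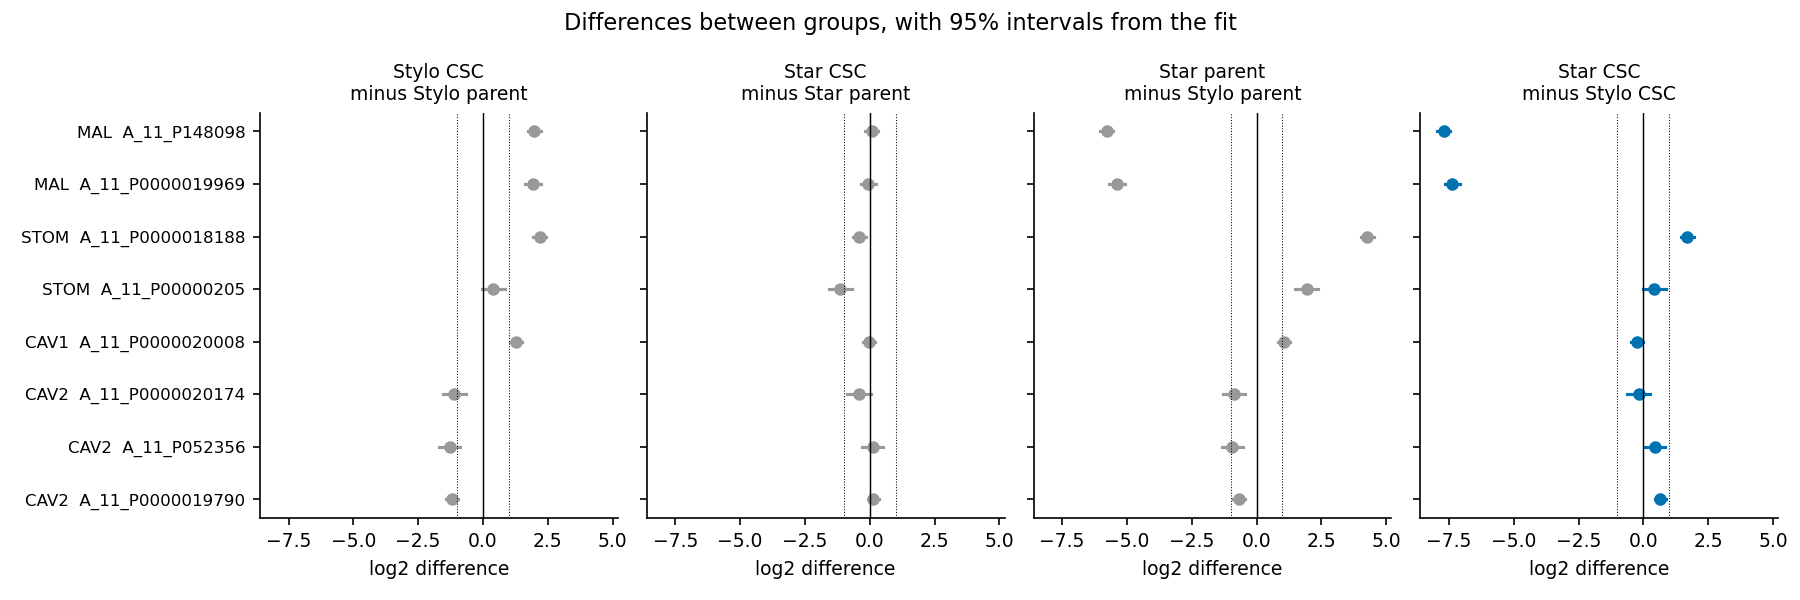
Differences between groups for the 8 probes (horizontal axis, log2 difference; points, estimates; lines, 95% intervals from the fit; dotted lines, 2-fold), in 4 comparisons. Blue marks the comparison with a test and grey the comparisons given as description only; in Star CSC minus Stylo CSC the MAL probes sit at -7.70 and -7.37 and the brighter STOM probe at 1.69, while the other 5 probes lie within 2-fold of 0.

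CAV1 was lowest in the unsorted sensitive line. Its probe, A_11_P0000020008, read 4.69 and 4.59 in Stylo parent, 5.86 and 5.94 in Stylo CSC, 5.73 and 5.65 in Star parent, and 5.64 and 5.68 in Star CSC. Stylo parent lay below the other 3 groups, Stylo CSC lay above both Star groups by a small margin, and Star parent and Star CSC overlapped. In Stylo CSC against Stylo parent, where 54% of 26821 tested probes were called, 21.9% higher and 32.1% lower, the CAV1 difference was 1.26 ± 0.09, or 2.39-fold (interval 1.03 to 1.49). It was positive under all 22 alternatives, from 1.21 to 3.34.

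Sorting the resistant subline changed 9.72% of probes past the call rule, 3.21% higher and 6.51% lower, and there the CAV1 difference was -0.03 ± 0.09 (interval -0.26 to 0.20). The difference between the 2 sorting effects, Star less Stylo, was -1.29 ± 0.13 for CAV1, in a contrast that called 52.1% of probes (28.2% higher, 23.9% lower). All 3 values use the unsorted arrays and carry no test. Between the sorted populations CAV1 differed by -0.24 ± 0.09 (interval -0.47 to -0.01, limma adjusted p = 0.0742), and the sign turned with quantile (0.47), cyclic loess (0.36) and spike-in scaling (0.31). The unsorted lines differed by 1.05, given without a test, in a comparison that called 56.6% of probes, 24.6% higher and 32% lower.

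CAV2 was highest in Stylo parent, where CAV1 was lowest. Its brightest probe, A_11_P0000020174, read 6.07 and 5.94 in Stylo parent, 4.85 and 4.94 in Stylo CSC, 5.33 and 4.93 in Star parent, and 4.88 and 4.55 in Star CSC. Stylo parent stood above the rest, Stylo CSC overlapped both Star groups, and Star CSC lay just below Star parent. Probe A_11_P052356 read 3.08 and 2.96, 1.64 and 1.85, 2.27 and 1.88, and 2.12 and 2.27 in the same order of groups. Probe A_11_P0000019790 read 2.81 and 2.75, 1.57 and 1.59, 2.06 and 2.13, and 2.20 and 2.27, so on these dimmer probes Stylo CSC lay below both Star groups.

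In Stylo CSC against Stylo parent, again without a test, the CAV2 differences at the main scaling were -1.10 ± 0.18 (2.15-fold lower), -1.27 ± 0.17 and -1.20 ± 0.09 on these 3 probes, but they turned to 0.97, 0.81 and 0.88 with spike-in scaling and stood at 0.35, 0.00 and 0.02 with normexp background correction. On A_11_P0000020174 the value was -0.34 with quantile normalization, -0.67 with median scaling, -0.90 with the percentile of probes detected on all arrays and -0.51 with cyclic loess. The direction of CAV2 thus changed with the processing, whereas that of CAV1 was the same under every alternative run. The Stylo parent arrays, which carry the high CAV2 level, are also those with the lowest 75th percentile signal, and the part of that signal in the CAV2 result was not tested. Against the median change of all tested probes, CAV2 on this probe was at -0.82 at the main scaling, -0.83 with spike-in scaling and 1.11 with normexp.

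Within the Star line, sorted against unsorted, the 3 CAV2 probes differed by -0.41 ± 0.18, 0.12 ± 0.17 and 0.14 ± 0.09, with an interval of -0.86 to 0.03 on the first, and with spike-in scaling by 1.25, 1.78 and 1.81. The difference between the sorting effects was 0.69 ± 0.25, 1.39 ± 0.23 and 1.34 ± 0.13, and with normexp it was -0.76, 0.20 and 0.16. These values carry no test either. Star CSC against Stylo CSC gave -0.18 ± 0.18 (limma adjusted p = 0.418), 0.45 ± 0.17 (0.0616) and 0.66 ± 0.09 (0.00181), the last under the 2-fold limit. The 3 probes disagree in sign there, and the first turned positive with 4 of the scalings and with the mean of the probes. Unsorted, the lines differed by -0.87, -0.94 and -0.68, given without a test.

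CAV1 and CAV2 lie next to each other on chromosome 14 in the RefSeq gene table, and their products form joint oligomers. Within each array, CAV1 less CAV2 on the representative probes stood above the Stylo parent mean by 2.37 and 2.36 in Stylo CSC, 1.76 and 2.09 in Star parent, and 2.12 and 2.49 in Star CSC. Stylo parent was thus apart from all 6 other arrays in the balance of the 2 caveolins, whichever constant scales an array. A ratio within an array shows unequal change of the 2 transcripts and not which of them moved.

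**Figure D3:**
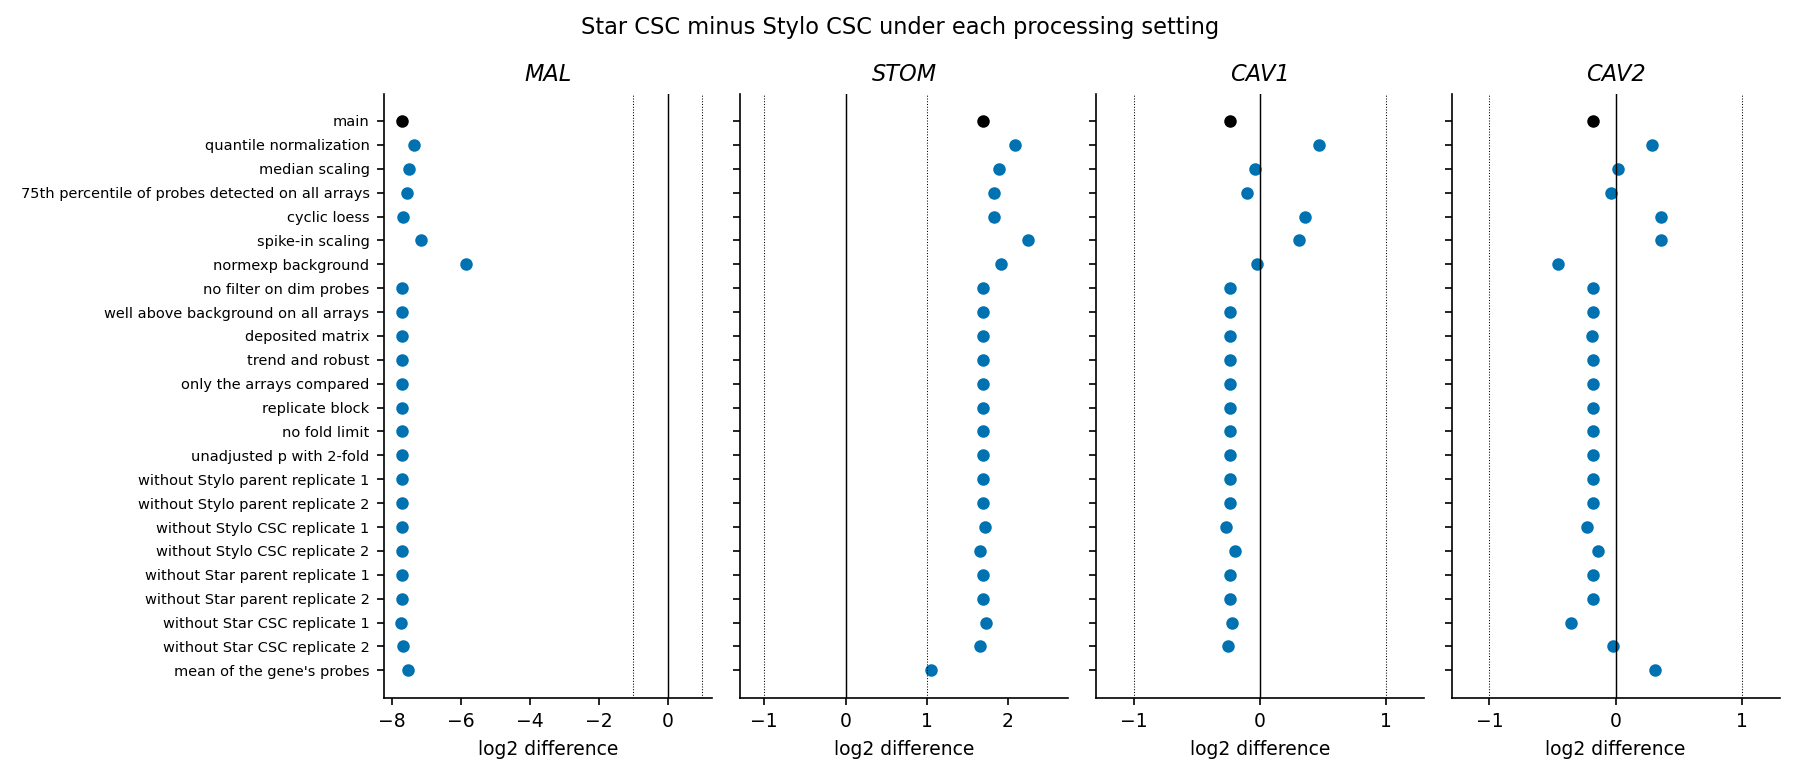
Star CSC minus Stylo CSC for the representative probe of each gene (horizontal axis, log2 difference, with its own range in each panel) under the main processing (black) and each alternative (blue); dotted lines mark 2-fold. MAL stays between -7.72 and -5.86 and STOM between 1.05 and 2.24, while CAV1 and CAV2 lie on both sides of 0.

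Few partners of these genes could be followed. Of 17 caveolar coat genes listed, only CAV3, the muscle caveolin, had a matched probe, and of 12 MAL family genes only CMTM1. Neither was detected: no array flagged either probe as well above background. Of 11 stomatin, flotillin and prohibitin genes, PHB had probes, and its representative differed by 0.19 in the sorted cells, but its 3 probes ran from -2.00 to 1.06.

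Of 45 genes for proteins known to reside in rafts or caveolae, 22 had a matched probe and 20 were tested. With Star CSC set against Stylo CSC, 3 were called higher, 4 lower and 13 neither, with a median of -0.62. Over all 976 tested named genes 37.9% were called and the median was -0.19. The drug efflux pump ABCB1 rose by 2.42, the prion protein PRNP by 1.64 and the inhibitory G protein subunit GNAI2 by 1.47. THY1 (-2.82), endothelial nitric oxide synthase NOS3 (-1.77) and alkaline phosphatase ALPL (-1.69) fell. GNAS, the stimulatory G protein subunit, was also called lower, at -1.09, and lost that call under the other scalings and normexp. NOS3 (-1.23) and ALPL (-1.14) lost theirs with spike-in scaling, which left 3 called higher and 1 lower. THY1 counts among the fibroblast markers too. In Stylo CSC against Stylo parent, 5 of the 20 were called higher and 7 lower, where 57.3% of named genes were called. The split was 10 and 4 with median scaling, where 8156 of all 26821 tested probes were called higher and 6092 lower. It was 13 and 0 with spike-in scaling, where 17999 were called higher and 319 lower. In Star CSC against Star parent none was called higher and 1 lower, where 12.9% of named genes were called. With spike-in scaling the split there was 14 and 0, against 21860 and 176 of 26819 tested probes. With backgrounds of this size the splits are not by themselves a result about these genes.

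Of 31 genes for cholesterol and sphingolipid supply, 6 were measured. In the sorted cells the cholesterol carrier of the lysosome NPC2 was called higher, at 1.1, a call lost with normexp (0.86), and its other probe read -0.07. The lipid synthesis regulator SREBF1 was called lower, at -1.96. The median of the 6 was -0.02. MSMO1, also on this list, was not called on its representative probe, at -0.04. Its 5 tested probes ran from -0.04 to 1.66, and 3 of them were called higher. The main scaling gave 2 calls up and 1 down in Stylo CSC against Stylo parent, and none higher and 1 lower in Star CSC against Star parent, against the same shares of named genes as above. With spike-in scaling the counts were 5 and 0, and 3 and 0. That scaling called 17999 of 26821 and 21860 of 26819 tested probes higher in these comparisons, so the counts are not a result about these genes.

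Markers of other cell types also differed between the sorted populations. Of the 5 epithelial markers tested, 1 was called higher and 3 lower (CDH1 -2.20, CLDN3 -2.41, KRT14 -1.37) in Star CSC, where 37.9% of named genes were called. CLDN3 was measured on 1 of the 2 Star CSC arrays. KRT19, the one called higher, had no Stylo CSC array well above background, and Star CSC exceeded that group by at least 3.8-fold. With normexp the counts were 0 and 2. Of 5 leukocyte markers with a probe, 3 were tested and 2 passed the call rule, but neither was flagged as detected on the Stylo CSC arrays. CD86 in Star CSC exceeded Stylo CSC by at least 27.2-fold, while TYROBP in Star CSC lay below the lowest detected level of Stylo CSC, so no difference is given for it. With normexp 1 of them was called. The 5 probes had a summed level of 1.04 to 1.1 in Star CSC and 0.084 to 0.111 in Stylo CSC. The Star CSC sum is mostly CD86, at a mean log2 level of -0.04. In Stylo CSC 4 of the 5 probes were well above background on neither array and 0 on both. The sums thus do not describe a leukocyte marker set. The part of these markers in the MAL and STOM results was not tested.

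**Figure D4:**
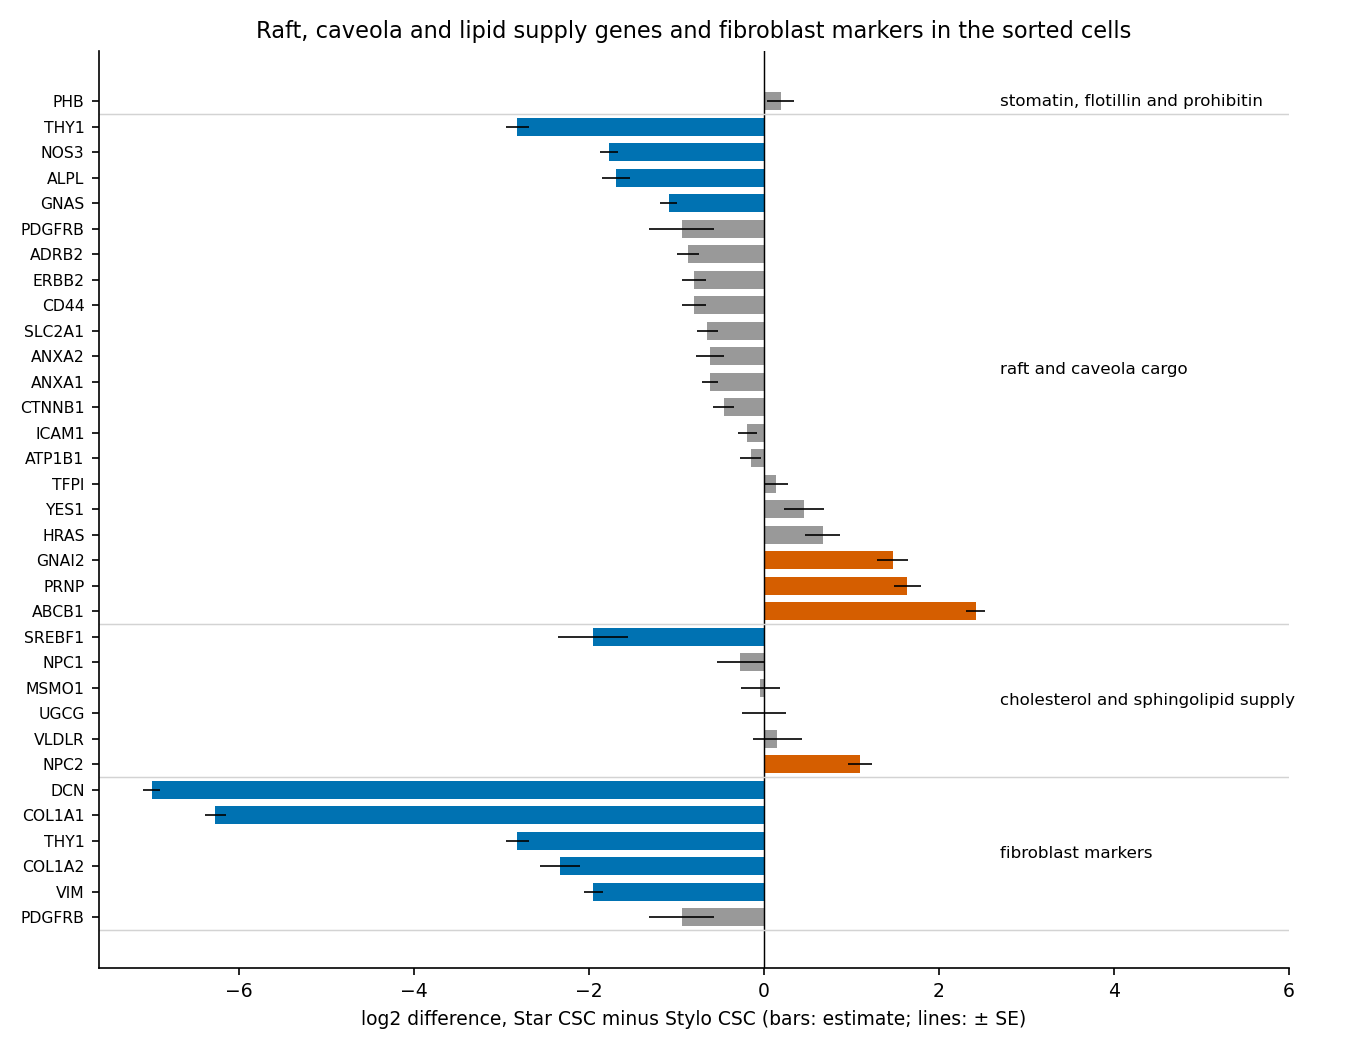
Star CSC minus Stylo CSC for the tested genes of 4 lists (bars, log2 difference of the representative probe; lines, ± SE; orange, called higher; blue, called lower; grey, not called). DCN at -7.00 and COL1A1 at -6.27 are the longest bars, and ABCB1 at 2.42 is the highest of the raft and caveola genes.

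The named genes with the closest profiles were sought by the root mean square (RMS) difference between centred log2 levels over the 8 arrays, among 970 genes. The arrays share their groups, so these likenesses mostly restate the group levels and are descriptions. For MAL the closest was DCN, at an RMS difference of 0.28 against a median of 3.36 over all genes, followed by COL1A1 (1.11) and the glutamate transporter SLC1A3 (1.37). DCN averaged 1.07 in Stylo parent, 2.71 in Stylo CSC, -4.40 in Star parent and -4.29 in Star CSC, and MAL averaged 1.36, 3.36, -4.42 and -4.34. The first of these neighbours was thus much closer to MAL than the next.

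For STOM the closest were the kinase DAPK1 (0.32), the membrane peptidase ANPEP (0.32) and the dystroglycan gene DAG1 (0.33), against a median of 1.98, and these were well above background on 6 or 7 of the arrays. For CAV1 they were the kinase MAP2K2 (0.13), the tight junction scaffold TJP1 (0.16) and the adhesion molecule SELP (0.17), against 1.01. SELP was well above background on 6 arrays, and its Stylo parent level of -4.32 lay below the lowest detected level there, -3.22. For CAV2 they were the small GTPases RAB1A (0.18), RHOA (0.19) and RAB10 (0.19), against 0.81. The smaller medians show that most named genes lay nearer to CAV1 and CAV2 than to MAL.

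**Figure D5:**
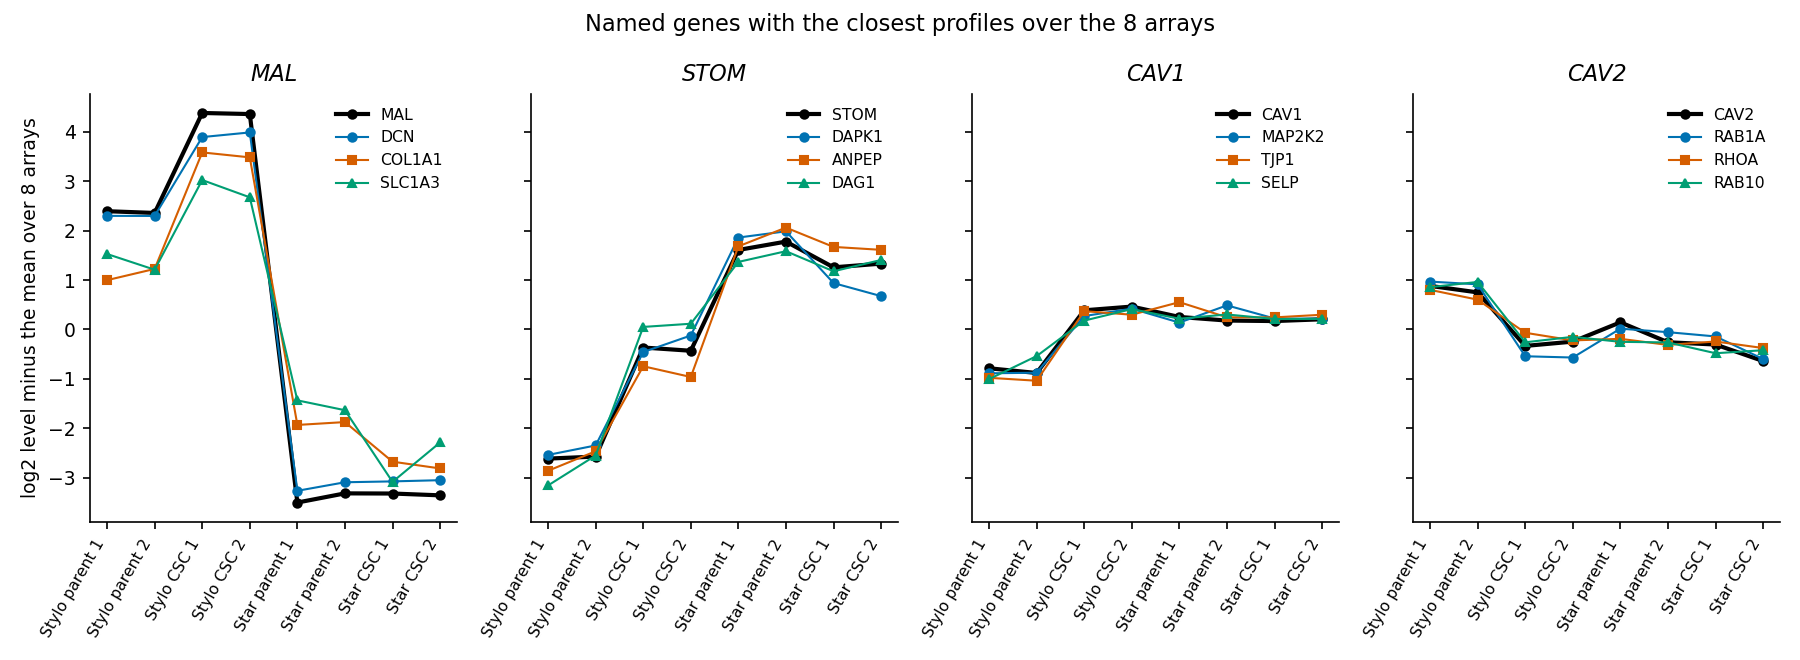
Centred log2 level (level less its mean over the 8 arrays, vertical axis) of each gene and of the 3 named genes with the closest profile, for each array (horizontal axis); lines only join points. DCN follows MAL on all 8 arrays, with an RMS difference of 0.28.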

How the data were processed

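Spot values came from Agilent Feature Extraction 11.5.1.1, per the submitters' processing notes. The deposited scanner files give each spot's processed signal as an intensity, together with flags, per the file headers. The authors also deposited a matrix of log2 values, with column medians of -0.27 to 1.01. Taken relative to the first array, it matched the levels used here up to a small constant per array. The median difference was at most 0.00859 and its SD at most 6.27e-07. That check covered the 18344 probes well above background on all arrays.

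Control and outlier spots were left out, log2 signals were averaged per probe, and levels were set relative to the 75th percentile of the array. Tested probes were those well above background on both arrays of any group. limma 3.58.1 in R 4.3.3 was fitted to the 4 group means on all 8 arrays, two-sided. RefSeq accessions (assembly UU_Cfam_GSD_1.0, used for names and neighbours) named 2353 probes. For each gene the tested probe of highest mean stands as its representative, and list genes called in the sorted cells may be named, with values for the 3 largest changes in each direction. Marker genes and GNAS, NPC2, MSMO1 and PHB were named after their values were seen. The members and lists were chosen with earlier results of these data known. Deviations of same-numbered arrays correlated at -0.07 to 0.07, and the fit holds no replicate block. Alternatives covered scaling, background correction (normexp, offset 50, on the median signal, since no mean signal column was present), filters, thresholds, variance models, the authors' matrix in place of the scanner values, and omission of single arrays. The fit and call rule were also run on simulated levels with 200 changed probes in Star CSC. Far more probes were called in the real data, and the simulation left out scaling, so it does not bear on the choice of scaling. Member p-values are given for the sorted populations alone, although the plan also tested CAV1 and CAV2 elsewhere. The other comparisons use the unsorted arrays, on which MAL and STOM were named. The p-values for the sorted populations are no independent test of the choice either, because earlier results of these data were known. The number of arrays limits the precision.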

Additional observations from a re-analysis of the deposited data

Results flagged for a closer look

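In limma's contrast of the 2 sorting effects (Star less Stylo), CAV1 and 2 of the 3 CAV2 probes passed the call rule. The contrast uses the unsorted arrays, on which MAL and STOM were named, so it gives no independent test, and the values are a description. CAV1 on probe A_11_P0000020008 had a difference of -1.29 ± 0.13, from -0.03 in Star and 1.26 in Stylo. CAV2 on probe A_11_P052356 had 1.39 ± 0.23, from 0.12 and -1.27, and on A_11_P0000019790 it had 1.34 ± 0.13, from 0.14 and -1.20. The third and brightest CAV2 probe, A_11_P0000020174, had 0.69, short of the call rule, and turned to -0.76 with normexp. Each of these differences uses the Stylo parent arrays, whose 75th percentile signal was the lowest of the 8, and the part of that signal was not tested. In the same contrast 52.1% of all tested probes were called. With spike-in scaling none of the first 3 differences passed the call rule: CAV1 stood at -1.70, and the CAV2 probes A_11_P052356 and A_11_P0000019790 at 0.98 and 0.93. With normexp background correction these 2 CAV2 probes stood at 0.20 and 0.16, also short of it.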

How the results depend on the processing

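MAL and STOM (A_11_P0000018188) in Star CSC against Stylo CSC kept direction and call under every alternative run, and CAV1 in Stylo CSC against Stylo parent kept its direction. In comparisons with unsorted arrays a call means only the call rule. For the rest, the cause of each change was not tested. CAV2 (A_11_P0000020174) in Stylo CSC against Stylo parent lost its call with quantile (-0.34), median (-0.67), detected-probe percentile (-0.90) and cyclic loess scaling (-0.51) and turned with spike-in scaling (0.97) and normexp (0.35). There A_11_P052356 turned with spike-in scaling (0.81) and lost its call in 2 settings. A_11_P0000019790 turned with spike-in scaling (0.88) and normexp (0.02) and lost its call in 3 others. In Star CSC against Star parent, CAV1 turned with quantile (0.28), median (0.20), cyclic loess (0.14) and spike-in scaling (1.64) and normexp (0.09). CAV2 on A_11_P0000020174 turned there with spike-in scaling (1.25), which brought A_11_P052356 (1.78) and A_11_P0000019790 (1.81) past the call rule. In Star CSC against Stylo CSC, CAV1 turned with quantile (0.47), cyclic loess (0.36) and spike-in scaling (0.31). CAV2 on A_11_P0000020174 turned there with quantile (0.29), median (0.02), cyclic loess (0.36) and spike-in scaling (0.36) and with the mean of its probes (0.31). In the difference of sorting effects, CAV1 lost its call with spike-in scaling (-1.70), and CAV2 on A_11_P0000020174 turned with normexp (-0.76) and gained a call with the mean of its probes (1.14). The dim STOM probe A_11_P00000205 turned with normexp between the unsorted lines (-0.61) and in the difference of sorting effects (0.62), and with spike-in scaling in Star CSC against Star parent (0.53).

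Leaving out 1 array at a time moved CAV1 in Star CSC against Star parent from -0.06 to 0.01 and CAV2 (A_11_P052356) there from -0.08 to 0.31, the turned values coming without Star parent replicates 1 and 2 respectively. Counts of called probes ran over 14744 to 15235 between the unsorted lines, 13834 to 14576 and 2178 to 2985 for sorting in Stylo and Star, 7077 to 8043 between the sorted populations and 13082 to 13850 for the difference of sorting effects. With the replicate number as a block, 15150, 14461, 2523, 7867 and 13932 probes were called in these 5 contrasts, and no call of MAL, STOM, CAV1 or CAV2 changed.

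The main counts were 15169, 14486, 2607, 7897 and 13982. Without the filter on dim probes they were 26743, 28658 and, for the difference of sorting effects, 21994. Sorting in Star gave 22036 with spike-in scaling, 1143 with normexp, 1339 over probes detected on all arrays and 7919 with no fold limit. The sorted populations gave 4022 with normexp, 4558 over probes detected on all arrays and 15280 with no fold limit, and spike-in scaling gave 8545 for the difference of sorting effects. The share of calls that were higher was 43.5%, 40.5%, 33.1%, 42.8% and 54.1% at the main scaling, 73.9%, 98.3%, 99.2%, 73.3% and 34.8% with spike-in scaling, and 56.9%, 57.2%, 58.7%, 56.2% and 46.5% with median scaling. It was 55.3%, 54%, 46.6%, 52.4% and 46.6% with quantile normalization, and 25.1%, 25.7%, 32.5%, 35% and 70.2% with normexp. Cyclic loess gave 46.6% for sorting in Star, and the detected-probe percentile 54.3% between the unsorted lines. The median change of all probes in Stylo CSC against Stylo parent was -0.28 at the main scaling, 1.80 with spike-in scaling and -0.76 with normexp. Signal over background limits MAL on the Star arrays and the dim STOM probe.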
